A study of Mus musculus with 12 samples.

Results

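The comparison described here set the Cre-named libraries of the series against its ERT2-named libraries. All 12 RNA-seq columns of the deposited expression table were used: the 6 whose names contain cre, in either case, against the 6 that contain ert2 without cre. The cells were mouse bone marrow pre-B cells carrying floxed Ctnnb1 alleles (Ctnnb1 fl/fl), grown with IL7, transformed by retroviral BCR-ABL1 and then kept without IL7, which gives a model of B cell acute lymphoblastic leukemia (B-ALL). They carried either Cre-ERT2, a Cre recombinase that 4-hydroxytamoxifen (4-OHT) switches on, or the empty ERT2 vector. Every group, controls included, received 4-OHT at 1 µM for 2 days, and by the labels 3 of the 6 libraries of each vector also received LY2090314, an inhibitor of the kinase GSK3β, at 40 nM for 1 day. The 4 label groups thus had 3 libraries each: ERT2, ERT2 with LY2090314 (LY), Cre-ERT2, and Cre-ERT2 with LY. A figure legend of the study gives a shorter time for LY than the labels do.

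The ERT2 columns could be assigned to LY by name, but the Cre columns could not, since all 6 hold the letters ly. They come in 2 spellings, 3 columns written crely and 3 written LY4CRE, and which of these was treated is not certain by name. The 6 Cre columns were therefore kept as 1 group and compared with the average of the mean of the ERT2 columns and the mean of the ERT2 columns with LY. Since the labels give 3 treated and 3 untreated libraries for both vectors, this difference, called the vector difference below, needs no assignment of a Cre column to a treatment. Values are regularized log2 values (rlog), in which the counts of weakly expressed genes are drawn towards their mean across libraries, so that differences of low genes are understated. Read depth is unknown because the table gives no counts. Replicates are described as coming from separate mice, whereas 2 of the ERT2 columns with LY share 1 library number and may be technical.

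β-catenin, the product of Ctnnb1, is both a component of cell-cell junctions and the transcriptional effector of canonical Wnt signaling. In resting cells, CK1α and GSK3β phosphorylate its N-terminus on a scaffold of Axin and APC, and the marked protein is ubiquitinated and degraded. When GSK3β is inhibited, β-catenin accumulates and acts in the nucleus with TCF and LEF factors, and the first genes to respond include its own feedback inhibitors. The comparison of vectors asks what changes in B-ALL cells once Cre is active on the floxed Ctnnb1 alleles.

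Ctnnb1 lies on the plus strand of chromosome 9 at positions 120929216 to 120960507 (GRCm38, GENCODE vM21). Its main transcript spans 15 exons and 3623 bases, with the start codon in exon 2. In the floxed strain the study bought, the loxP sites are known to flank exons 2 to 6, which hold 984 bases, or 27.2% of that transcript, and leave 10 exons with 2639 bases outside. Exon 3, within that stretch at chr9:120950522-120950749 on the plus strand, is shown because it encodes the residues through which GSK3β and CK1α mark the protein, with codons 33, 37, 41 and 45, counted from the start codon, in capitals.
Ctnnb1 exon 3: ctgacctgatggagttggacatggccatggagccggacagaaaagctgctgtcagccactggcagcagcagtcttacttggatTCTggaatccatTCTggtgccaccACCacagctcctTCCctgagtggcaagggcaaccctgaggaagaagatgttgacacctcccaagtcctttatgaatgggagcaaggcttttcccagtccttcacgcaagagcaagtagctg

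The level of Ctnnb1 RNA was not reduced in the Cre columns. It was 12.19, 12.19 and 12.20 in the ERT2 columns and 11.87, 11.82 and 11.84 in the ERT2 columns with LY. The crely columns held 12.11, 12.22 and 12.14, and the LY4CRE columns held 12.18, 12.15 and 12.18. All 6 Cre columns thus lay close to the ERT2 columns without LY and above those with LY. Over all columns the vector difference was 0.14 (SE 0.0282), with a limma adjusted p of 0.00195, whereas the exact two-sided permutation test of 6 against 6 columns gave p = 0.162 and a fit of 2 groups alone did not call the gene. The value sums reads over the whole gene, the exons outside the loxP sites included, and exon-level reads were not analysed here. The RNA level therefore does not check the label, and the text speaks of Cre-named columns throughout.

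**Figure D1:**
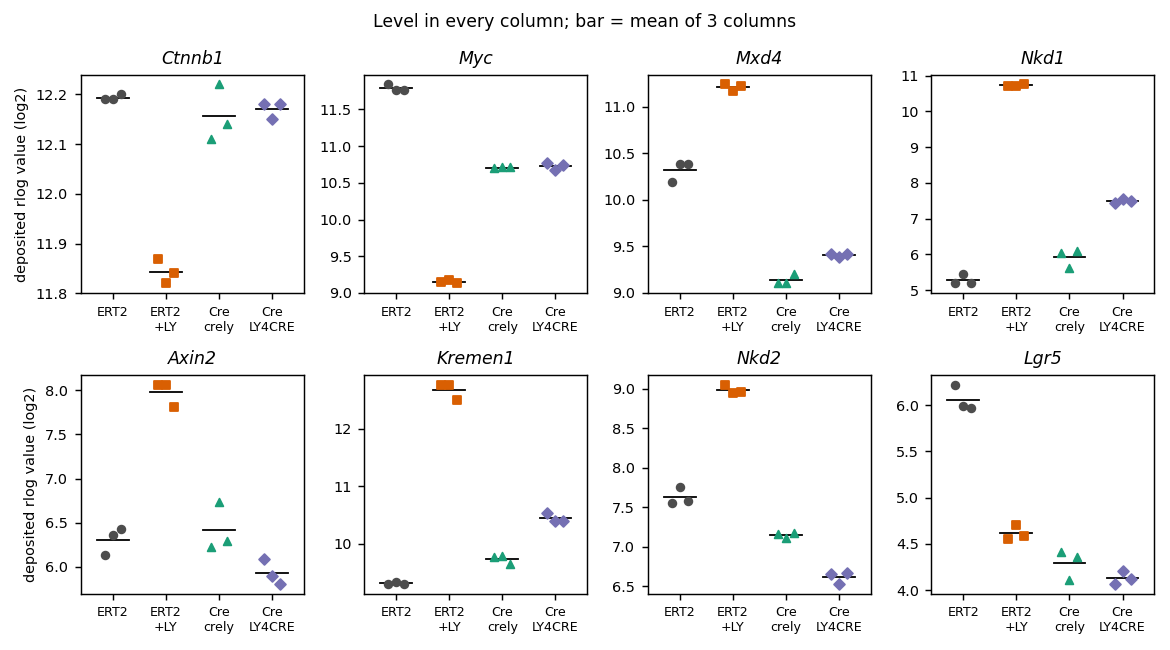
Deposited rlog value (log2 scale, vertical axes that do not start at 0) of 8 genes in each of the 12 columns, in the 4 sets of 3 columns given on the horizontal axes, with bars at the mean of 3 columns. Ctnnb1 in the Cre columns lies at the level of ERT2 cells without LY, Myc lies between both ERT2 groups, and Mxd4, Nkd2 and Lgr5 are lower in every Cre column than in any ERT2 column.

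Of 11544 genes with a mean of at least 3, 4406 (38.2%) differed between the vectors (limma, Benjamini-Hochberg adjusted p under 0.05), 2236 (19.4%) of them higher and 2170 (18.8%) lower in Cre columns. Most differences were small, and 145 genes (1.26%) also differed by at least 1 on the log2 scale. In 1059 genes (9.17%) the 6 Cre columns did not overlap the 6 ERT2 columns, with 570 (4.94%) above and 489 (4.24%) below, and 1057 (9.16%) of the genes tested also passed the test. Such a gene lies outside both ERT2 groups whichever Cre columns were treated, so these genes come first below. For other genes the vector difference can come from LY having moved the ERT2 cells further than it moved the Cre cells, and the mean of the Cre columns was therefore also set against each ERT2 group. Against ERT2 without LY, 2236 genes (19.4%) differed, 1147 (9.94%) of them higher, and against ERT2 with LY 5775 genes (50.0%) differed, 2878 (24.9%) of them higher. At an unadjusted p under 0.05 the vector difference held 5425 genes (47.0%). A fit of the 6 Cre against the 6 ERT2 columns, in which the effect of LY counts as replicate error, called 1813 genes, 986 higher and 827 lower. The main fit keeps the 6 Cre columns as 1 group, so its error holds any difference between treated and untreated Cre columns. A gene that did not pass may therefore still differ, most of all where the Cre spellings lie apart.

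The Cre columns resembled ERT2 cells without LY more than those with LY. On a scale where 0 is the mean of the ERT2 columns and 1 the mean of the ERT2 columns with LY over all genes tested, the crely columns stood at 0.09 to 0.11 and the LY4CRE columns at 0.37 to 0.39. The ERT2 columns, each placed without itself, stood at 0.01 to 0.06, and those with LY at 0.90 to 0.99. The Cre mean was nearer to ERT2 without LY in 67.1% of all genes tested and in 77.9% of the 4406 genes called. The second share is not independent of the call, which itself requires the Cre mean to lie away from the midpoint of both ERT2 means. The 2 Cre spellings also differed from each other, with an SD of 0.401 to 0.416 for the differences between a crely and a LY4CRE column over all genes, against 0.185 to 0.253 within any set of 3.

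Among genes without overlap, those that stood highest in Cre columns included Ccnd1, Lta, Pld4, Mgll and Slc16a3. Ccnd1, which encodes the G1 cyclin D1, had the largest vector difference. It was low in ERT2 columns, at 4.61, 4.35 and 4.41 without LY and 4.75, 4.82 and 4.62 with LY. The crely columns held 5.60, 5.49 and 5.67 and the LY4CRE columns 8.28, 8.28 and 8.27. The rise was thus present in both spellings but far larger in LY4CRE columns, and the vector difference was 2.34 (SE 0.550, limma adjusted p = 0.00577). Lta encodes the cytokine lymphotoxin α. Its level was 9.07, 8.95 and 9.15 in ERT2 columns, 6.98, 6.95 and 7.04 with LY, 10.16, 10.19 and 10.18 in crely columns, and 10.53, 10.42 and 10.40 in LY4CRE columns. Lta was lower with LY in ERT2 cells, yet both Cre sets stood above untreated ERT2 cells, by 1.26 on average (SE 0.0873, limma adjusted p = 2.24e-06).

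Pld4, an endosomal nuclease of the phospholipase D family, stood at 7.42 to 7.46 in ERT2 columns and at 7.08 to 7.42 with LY, against 9.31 to 9.70 in the 6 Cre columns. Its vector difference of 2.17 (SE 0.0843, limma adjusted p = 1.05e-08) barely depended on the ERT2 group, being 2.07 against ERT2 without LY and 2.27 against ERT2 with LY. Mgll, the lipase that cleaves monoacylglycerols, was higher by 2.03 and Slc16a3, the lactate exporter MCT4, by 1.92. The xylosyltransferase gene Xylt1 was higher by 1.83, the leukotriene receptor gene Cysltr1 by 1.74, and the plasma membrane calcium pump gene Atp2b4 by 1.72. The last of the 10 were Zfp385a, a zinc finger gene, at 1.71 and the adaptor gene Sla2 at 1.66. Zfp385a was higher by 0.78 against ERT2 without LY and 2.64 against ERT2 with LY, and Sla2 by 2.49 and 0.83. Each passed the test in the vector difference and against either ERT2 group alone.

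Genes that stood lowest in Cre columns included Mmp14, Aldh1a7, Enpep and Mxd4. Mmp14, a membrane-bound matrix metalloproteinase, had levels of 8.25, 8.23 and 8.13 in ERT2 columns and 9.56, 9.58 and 9.48 with LY. It was 6.77, 6.82 and 6.82 in crely columns and 5.98, 6.19 and 6.11 in LY4CRE columns. The gene thus went up with LY in ERT2 cells and was low in all Cre columns, with a vector difference of -2.42 (SE 0.154, limma adjusted p = 3.8e-07). The aldehyde dehydrogenase gene Aldh1a7 had a difference of -2.29, Enpep, which encodes the aminopeptidase BP-1 of early B cells, had a difference of -1.55, and Sytl2, a gene for a synaptotagmin-like protein of vesicle transport, -1.52. Igf2bp3, a fetal-type RNA-binding protein, stood at 6.83 to 7.19 over the 6 ERT2 columns and at 5.07 to 5.83 over the 6 Cre columns, and LY moved it by only 0.18 in ERT2 cells. The scaffold gene Akap12 had a difference of -1.42, made up of -0.68 against ERT2 without LY and -2.17 against ERT2 with LY.

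Some of the lowest genes carry limits of their own. Dnah8, a dynein heavy chain gene, had a vector difference of -1.79, with 8.88 to 9.13 in crely and 6.52 to 7.04 in LY4CRE columns against 9.38 to 9.84 in the 6 ERT2 columns. It overlaps Glo1 on the other strand, and Glo1 itself stood on average at 9.88 in both ERT2 groups, 10.03 in crely and 9.67 in LY4CRE columns, a vector difference of -0.03 that did not pass. Pcdhac1 had a difference of -1.39, with -0.74 against ERT2 without LY and -2.04 against ERT2 with LY. It shares exons with the other protocadherin α genes, between which reads may be split. Aldh1a7 has a close paralogue in its gene family, so its reads may be split as well.

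**Figure D2:**
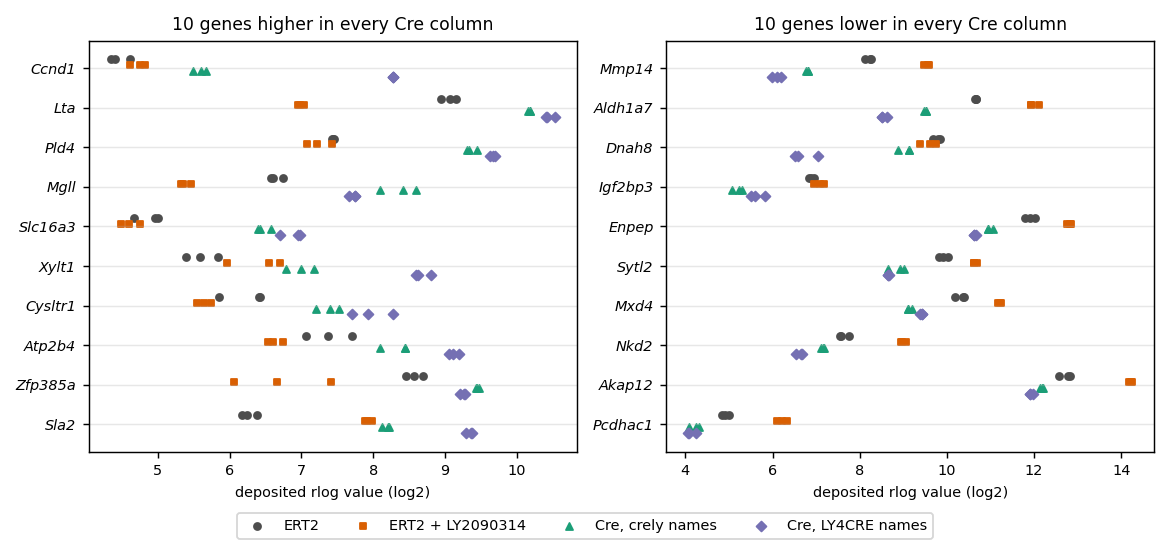
Deposited rlog value (log2 scale, horizontal axes) in each of the 12 columns for the 10 genes with the largest positive and the 10 with the largest negative vector difference among genes that passed the test without overlap. In every row the Cre columns, crely and LY4CRE, lie to one side of all ERT2 columns. Ccnd1, Xylt1 and Dnah8 show the widest gaps between the 2 Cre spellings.

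Against ERT2 cells without LY alone, Sla2, Ccnd1, Tusc3, Cd28 and Xylt1 stood highest in Cre columns and Eed, Dnah8, Lgr5, Plcg1 and Mmp14 lowest. Cd28, a costimulatory receptor best known from T cells, was at 5.58 to 5.93 in ERT2 columns, 6.90 to 7.09 in crely and 8.96 to 9.10 in LY4CRE columns, while ERT2 columns with LY held 8.93 to 8.97. The level of Cd28 in LY4CRE columns was thus that of LY-treated ERT2 cells, and its difference from ERT2 without LY was 2.28 (SE 0.507, limma adjusted p = 0.0089). Eed, a subunit of Polycomb repressive complex 2, showed a difference of -2.23 (SE 0.325, limma adjusted p = 6.02e-04) from ERT2 without LY, but it stood at 4.68 to 5.32 in ERT2 columns with LY and did not pass against them. Plcg1, which encodes phospholipase Cγ1, stood at 11.16 to 11.20 in ERT2, 10.47 to 10.60 in crely and 8.19 to 8.32 in LY4CRE columns. Calls for Tusc3, Plcg1, Dnah8 and Ccnd1 against ERT2 without LY were lost when any 1 of the ERT2 columns without LY was left out, with limma adjusted p from 0.0702 to 0.132, and Tusc3 was also uneven within sets, with 4.14 in 1 crely column and 6.69 and 7.64 in the others.

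The target and feedback genes of β-catenin were lower in Cre columns than in the average of the ERT2 groups, and the group treated with LY carried most of that difference. Of 16 genes on the list, 12 were expressed enough to be tested, 9 (75%, against 18.8% of all genes tested) were lower in the vector difference and 0 were higher, with a median of -0.74 against 0.00 over all genes. Against ERT2 without LY, 2 of the 12 were lower and 4 higher (against 9.43% and 9.94% of all genes). The fit of 2 groups alone called 3 lower (against 827 of all 11544 genes). LY raised these genes in ERT2 cells by a median of 1.40.

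Nkd1, which encodes a feedback inhibitor that binds Dishevelled, shows the pattern most clearly. It was 5.19, 5.45 and 5.21 in ERT2 columns and 10.71, 10.71 and 10.75 with LY, but 6.04, 5.63 and 6.09 in crely and 7.45, 7.56 and 7.50 in LY4CRE columns. Every Cre column thus stood above untreated and far below treated ERT2 cells. The difference was 1.43 (SE 0.408, limma adjusted p = 0.029) from the former and -4.01 (SE 0.408, limma adjusted p = 7.06e-06) from the latter. Kremen1, a Dickkopf receptor, behaved alike, at 9.31 in ERT2, 12.69 with LY, 9.73 in crely and 10.45 in LY4CRE columns on average. The ubiquitin ligase gene Znrf3 and the receptor gene Tnfrsf19 were likewise higher than in ERT2 without LY, by 0.38 and 0.86.

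Axin2, the scaffold of the degradation complex and the most general target of the pathway, stood at 6.14, 6.36 and 6.43 in ERT2 columns and at 8.06, 8.06 and 7.81 with LY. Its values were 6.22, 6.73 and 6.29 in crely and 6.09, 5.90 and 5.81 in LY4CRE columns. No Cre column came near the LY-treated ERT2 cells, and the difference from ERT2 without LY was -0.14 (SE 0.173, limma adjusted p = 0.627). The transcription factor genes Tcf7 and Lef1 differed from LY-treated ERT2 cells by -2.24 and -0.97 and did not pass against untreated cells. Tcf7 was 8.68 to 8.78 in LY4CRE columns, above the 7.83 to 7.99 of the crely and untreated ERT2 columns, whereas Lef1 averaged 11.03 in both spellings.

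Nkd2 and Lgr5 were the 2 of 12 tested members of this list without overlap (against 9.17% of all genes), and both were lower in all Cre columns. Nkd2, the paralogue of Nkd1, was 7.55, 7.75 and 7.58 in ERT2 columns, 9.05, 8.95 and 8.96 with LY, 7.16, 7.11 and 7.17 in crely and 6.65, 6.53 and 6.67 in LY4CRE columns. Its vector difference was -1.43 (SE 0.122, limma adjusted p = 3.76e-06). Lgr5, the R-spondin receptor, went the other way with LY, from 5.97 to 6.22 in ERT2 columns down to 4.55 to 4.70 with LY, and was 4.11 to 4.41 in crely and 4.07 to 4.21 in LY4CRE columns. It was therefore low in Cre columns of both spellings, most of all against untreated ERT2 cells (-1.84, SE 0.0979, limma adjusted p = 7.25e-07).

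Most genes that degrade β-catenin moved little. Of 14 tested, 5 were lower and 1 higher in the vector difference (42.9% called, against 38.2% of all genes), and none exceeded 0.42 in size among those called. Apc, the scaffold tumor suppressor, had a difference of -0.42 and Gsk3b -0.14, while Amer1, which brings Axin and APC to the membrane, had -0.18. Amer1 was the only one of the list without overlap (against 9.17% of all genes), at 9.61 to 9.71 in Cre and 9.79 to 9.91 in ERT2 columns. Csnk1a1 and Axin1 differed by -0.01 and 0.05 and did not pass. Siah1a did not pass either (0.29, limma adjusted p = 0.25), although its Cre spellings lay apart. It stood at 9.21 to 9.27 in LY4CRE columns, 8.23 to 8.42 in crely columns and 8.32 to 8.65 in ERT2 columns of both groups. Among 10 tested nuclear partners, 40% were called in the vector difference, against 38.2% of all genes. The coactivator Ep300 was lower without overlap (-0.31, SE 0.0432, limma adjusted p = 1.51e-04). The corepressor gene Aes was higher by 0.97, with overlap. Its level was low, on average 4.2 in both ERT2 groups, 4.68 in crely and 5.67 in LY4CRE columns. The fit of 2 groups alone called 1 gene in each direction (against 986 higher and 827 lower of all 11544 genes).

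Of 8 tested paralogues and junction genes, Ctnnd1 and Ctnna1 were higher (25% called, against 38.2% of all genes) and 0 were lower. Ctnna1 did not pass against ERT2 cells without LY. Ctnnd1 encodes p120-catenin, which binds cadherins beside β-catenin. Its level was 9.81, 9.74 and 9.82 in ERT2 columns, 10.03, 9.84 and 10.07 with LY, 10.35, 10.33 and 10.36 in crely and 10.99, 10.91 and 10.97 in LY4CRE columns. Both Cre sets were above both ERT2 groups, with a vector difference of 0.76 (SE 0.130, limma adjusted p = 7.26e-04). Jup, the closest paralogue of Ctnnb1, was near the limit of the filter, at 3.63 in ERT2, 4.17 with LY, 3.66 in crely and 3.73 in LY4CRE columns on average, and did not pass (-0.20, limma adjusted p = 0.106).

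Within the MYC network, Myc itself lay between the ERT2 groups, and some genes of its antagonists were lower. Myc, which drives transcription of growth genes together with Max, was 11.84, 11.77 and 11.76 in ERT2 columns and 9.15, 9.17 and 9.13 with LY. It was 10.70, 10.71 and 10.71 in crely and 10.77, 10.68 and 10.75 in LY4CRE columns, so the 2 spellings did not separate for this gene. Every Cre column was below untreated ERT2 cells (-1.07, SE 0.0359, limma adjusted p = 1.29e-08), and above treated ones, by 1.57 (SE 0.0359, limma adjusted p = 3.14e-11), which leaves a vector difference of 0.25. Mxd4, which competes with Myc for Max and represses, was 10.19, 10.39 and 10.38 in ERT2, 11.24, 11.17 and 11.22 with LY, 9.11, 9.10 and 9.20 in crely and 9.42, 9.38 and 9.42 in LY4CRE columns. Its vector difference was -1.49 (SE 0.0683, limma adjusted p = 3.02e-08).

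Mxd3 and the Max-like partner gene Mlxip were also lower without overlap (-0.44 and -0.46). With Mxd4 they were the 3 members without overlap, against 9.17% of all genes. In all, 4 of 12 network genes were lower and 1 higher in the vector difference (41.7% called, against 38.2% of all genes). The fit of 2 groups alone called 3 lower and 0 higher (against 827 and 986 of all 11544 genes). The antagonist genes Mxd1 (-0.28), Mnt (-0.17) and Mxi1 (0.09) did not pass in the vector difference. Against ERT2 without LY, 7 were lower and 0 higher (against 9.43% and 9.94% of all genes), among them Mycn (-0.50), Mxi1 (-0.51) and Mnt (-0.33), while Mxi1 was above ERT2 cells with LY (0.70). Max itself differed by 0.10 in the vector difference and did not pass.

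Genes of ribosome biogenesis and growth, many of which are known MYC targets, stood higher in Cre columns. Of 30 tested, 27 (90.0%, against 19.4% of all genes) were higher and 0 lower, with a median of 0.42. Without overlap were 10 members, all of them higher (against 4.94% of all genes). The fit of 2 groups alone called 14 higher (against 986 of all 11544 genes). Against untreated ERT2 cells, in which Myc was higher than in the Cre columns, 12 were higher and 0 lower (against 9.94% and 9.43% of all genes), with a median of 0.12. Against treated ERT2 cells 28 were higher (against 24.9% of all genes), with a median of 0.72.

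Ldha, the lactate dehydrogenase A gene, was 14.33, 14.37 and 14.53 in ERT2 columns, 13.66, 13.64 and 14 with LY, 15.13, 15.30 and 15.27 in crely and 14.78, 14.81 and 14.88 in LY4CRE columns. No column of the groups overlapped, and the vector difference was 0.94 (SE 0.108, limma adjusted p = 3.81e-05), in the same direction as that of the lactate exporter gene Slc16a3. Npm1, the abundant nucleolar chaperone, ran from 15.57 to 15.85 in Cre columns against 15.29 to 15.39 in ERT2 columns and 14.62 to 14.91 with LY. The amino acid transporter gene Slc7a5 was at 12.93 to 13.37 in Cre columns, 12.61 to 12.68 in ERT2 columns and 12.28 to 12.47 with LY. Of the others, Odc1, Nop2, Nop16, Dkc1, Eif4a1, Pes1 and Rrs1 also showed no overlap. The spermidine synthase gene Srm (0.76) and the folate carrier gene Slc19a1 (0.70) overlapped with untreated ERT2 cells and owed most of their difference to the treated ones.

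**Figure D3:**
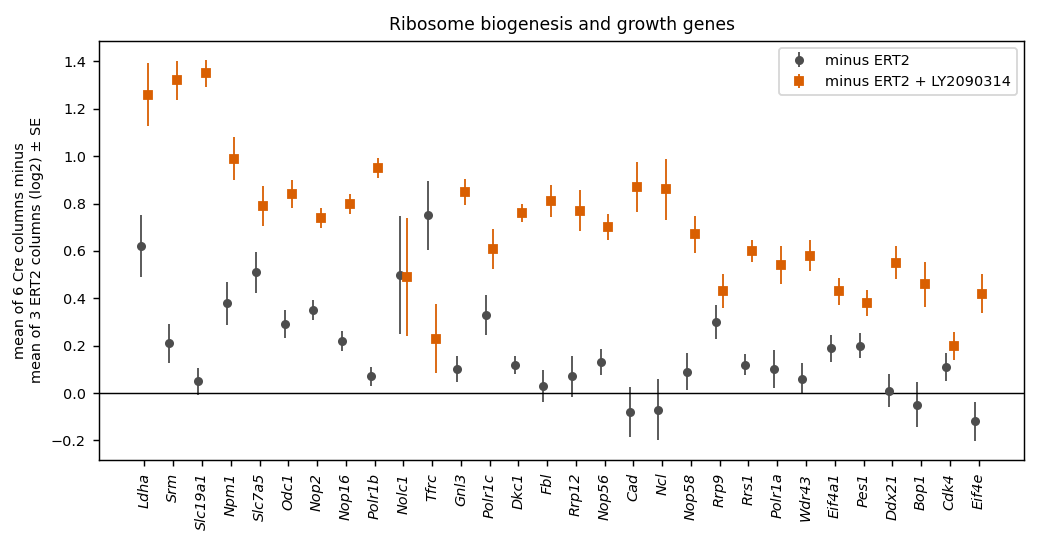
Mean of the 6 Cre columns minus the mean of 3 ERT2 columns (log2, error bars SE of the limma fit) for the 30 ribosome biogenesis and growth genes, against ERT2 without LY (circles) and against ERT2 with LY (squares), ordered by the vector difference. Both comparisons share the Cre columns. All squares lie above 0, whereas the circles range from -0.12 for Eif4e to 0.75 for Tfrc.

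Genes of B cell identity were called in both directions. Of 26 tested, 7 were higher and 8 lower in the vector difference (57.7% called, against 38.2% of all genes), and against untreated ERT2 cells 2 were higher and 11 lower (against 9.94% and 9.43% of all genes). The fit of 2 groups alone called 1 higher and 5 lower (against 986 and 827 of all 11544 genes). The 1 higher member without overlap (against 4.94% of all genes) was Cd24a, a surface glycoprotein gene of early B cells, at 14.96 to 15.14 in Cre and 14.80 to 14.93 in ERT2 columns. The 5 lower members without overlap (against 4.24% of all genes) were the transcription factor genes Bach2, Ebf1, Foxo1 and Pou2af1 and the interleukin-7 receptor gene Il7r.

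Bach2, a repressor active in early B cells, was 13.39, 13.42 and 13.16 in ERT2 columns, 13.04, 13.04 and 12.75 with LY, 12.25, 12.10 and 12.02 in crely and 12.23, 12.11 and 12.45 in LY4CRE columns. The Cre columns lay below every ERT2 column, with a vector difference of -0.94 (SE 0.0809, limma adjusted p = 3.87e-06). Il7r was 12.16, 12.10 and 12.07 in ERT2, 12.44, 12.42 and 12.51 with LY, 11.58, 11.59 and 11.54 in crely and 11.37, 11.46 and 11.40 in LY4CRE columns, a vector difference of -0.79 (SE 0.0442, limma adjusted p = 1.51e-07). Ebf1, a factor that specifies the lineage, was at 13.68 to 13.77 in ERT2 columns, 13.27 to 13.37 with LY and 12.96 to 13.20 in Cre columns. Foxo1 and Pou2af1 had differences of -0.52 and -0.25.

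The surrogate light chain genes, which form the pre-B cell receptor with the heavy chain, were higher than in LY-treated ERT2 cells and did not pass against untreated ones. Igll1 was 13.01 to 13.19 in ERT2, 11.59 to 11.82 with LY and 13.03 to 13.21 in Cre columns, and Vpreb1 and Vpreb2 were higher than in treated cells by 1.20 and 1.40. Pax5, the guardian factor of B cell identity, was below untreated (-0.55) and above treated ERT2 cells (0.99), and its vector difference of 0.22 did not pass (limma adjusted p = 0.0595). Prdm1, which drives plasma cell differentiation, was 5.99 to 6.11 in ERT2, 10.50 to 10.55 with LY, 6.65 to 6.70 in crely and 7.98 to 8.06 in LY4CRE columns. Every Cre column was thus above untreated cells (1.28) and below treated ones (-3.18). Cd79a, a signaling chain of the B cell receptor, differed by -0.13 and did not pass. Of the other higher members, Cd22, an inhibitory receptor gene, had a vector difference of 0.76, and the transcription factor genes Pou2f2 and Spib had 0.69 and 0.33, although both were below ERT2 cells without LY (-0.69 and -0.38). The 0.15 of Cd24a turned to -0.07, without passing, after quantile normalization.

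**Figure D4:**
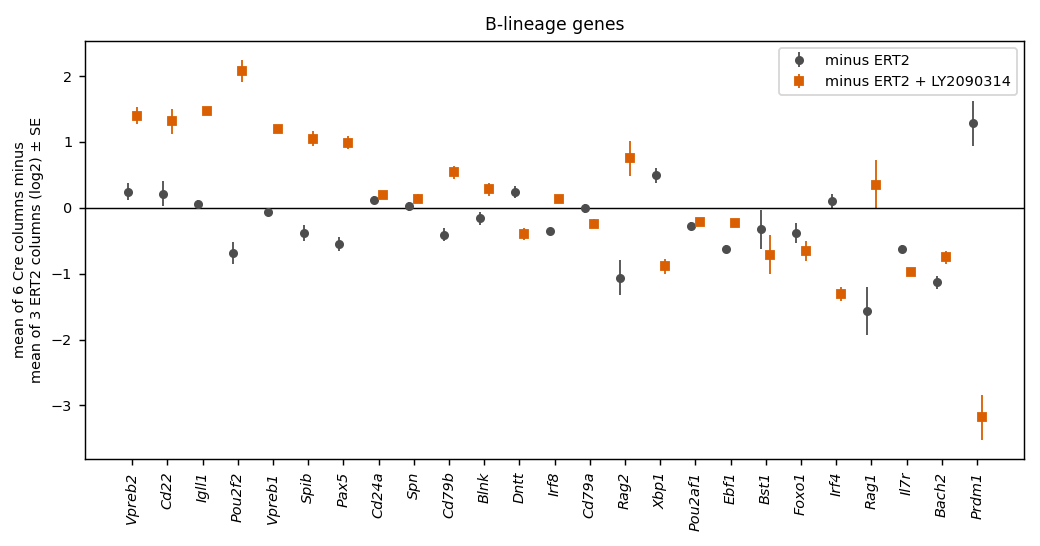
Mean of the 6 Cre columns minus the mean of 3 ERT2 columns (log2, error bars SE of the limma fit) for 25 of the 26 tested B-lineage genes, against ERT2 without LY (circles) and with LY (squares), ordered by the vector difference. Both comparisons share the Cre columns. Bach2, Il7r, Ebf1, Foxo1 and Pou2af1 have both marks below 0, whereas Prdm1 and Pou2f2 have their marks on opposite sides.

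Most Ikaros factors and subunits of the NuRD corepressor complex changed little in the vector difference, in which Ikzf3 moved most. Of 16 tested, 4 were higher and 1 was lower (31.2% called, against 38.2% of all genes). Ikzf3, the gene for Aiolos, stood at 11.65 to 11.80 in ERT2, 12.66 to 12.87 with LY and 11.43 to 11.70 in Cre columns, so that its vector difference of -0.69 (SE 0.0537, limma adjusted p = 1.85e-06) rested on the treated ERT2 cells, and the fit of 2 groups alone lost it. Ikzf1, the Ikaros gene, averaged 13.59 in ERT2, 13.36 with LY, 13.47 in crely and 12.98 in LY4CRE columns and did not pass (-0.25, limma adjusted p = 0.0809). The NuRD subunit gene Mta1 was higher by 0.42 (SE 0.0482, limma adjusted p = 3.98e-05), by 0.79 against treated and 0.04 against untreated ERT2 cells. Rbbp7 and Mta3 were higher without overlap (against 4.94% of all genes), by 0.29 and 0.34. Mbd2 did not pass in the vector difference (-0.06). It was the 1 member of 16 called against untreated ERT2 cells, against 19.4% of all genes (-0.44, limma adjusted p = 8.72e-04). Against treated ERT2 cells 9 members were higher and 3 lower (against 24.9% and 25.1% of all genes). In the vector difference Chd4, the core ATPase, differed by 0.04 without passing.

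Of the cell cycle genes tested, 29.2% were called in the vector difference, against 38.2% of all genes. Ccnd1 was the 1 member of 24 that was higher, and 6 were lower. The fit of 2 groups alone called 1 higher and 3 lower (against 986 and 827 of all 11544 genes). Against untreated ERT2 cells 1 was higher and 8 were lower (against 9.94% and 9.43% of all genes). Against treated ERT2 cells 6 were higher and 6 lower (against 24.9% and 25.1% of all genes). Cdkn2c, which encodes p18, was at 10.02 to 10.25 in Cre columns against 10.57 to 10.70 in ERT2 columns and 10.80 to 10.86 with LY, and Cdkn1b, which encodes p27, was lower as well (-0.52, SE 0.0841, limma adjusted p = 5.05e-04). The other members that were lower in the vector difference were Cdkn2a, Cdkn2b, Ccnd2 and Cdk6, all of which overlapped. Mki67 and Pcna differed by -0.15 and 0.09 and did not pass, although Mki67 was below untreated ERT2 cells (-0.39). Ccnd3, which pre-B cells use as their main D-type cyclin, was at 14.58 in ERT2, 13.49 with LY, 14.06 in crely and 13.05 in LY4CRE columns on average. It was below untreated ERT2 cells (-1.02), and its vector difference did not pass (-0.48, limma adjusted p = 0.0919).

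Bcl2l1, which encodes the antiapoptotic protein BCL-XL, was 10.87, 11.06 and 11.16 in ERT2, 11.27, 11.22 and 11.48 with LY, 10.33, 10.54 and 10.51 in crely and 10.12, 10.10 and 10.32 in LY4CRE columns. All Cre columns were below all ERT2 columns (-0.86, SE 0.0871, limma adjusted p = 1.45e-05), and Bcl2l1 was the only one of 10 tested BCL2 family genes without overlap, against 9.17% of all genes. In the vector difference 1 of the 10 was higher and 3 were lower (40% called, against 38.2% of all genes), the higher one being Bok, a proapoptotic member, at 0.53. Bok was below untreated (-0.34) and above treated ERT2 cells (1.40). Bcl2 was 9.57 in ERT2, 11.79 with LY, 9.99 in crely and 10.94 in LY4CRE columns on average, and Mcl1 and Bmf had vector differences of -0.21 and -0.45.

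In the vector difference the p53 targets did not move as a group. Of 22 tested, 4 were higher and 6 lower (45.5% called, against 38.2% of all genes), with a median of 0.01. The fit of 2 groups alone called 3 higher and 0 lower (against 986 and 827 of all 11544 genes). Against untreated ERT2 cells 7 were higher and 2 lower (against 9.94% and 9.43% of all genes), with a median of 0.16. Against treated ERT2 cells 4 were higher and 8 lower (against 24.9% and 25.1% of all genes), with a median of -0.1. Sesn2, Tnfrsf10b and Plk2, which encode a stress-induced regulator of growth signaling, a death receptor and a kinase, were higher without overlap by 0.85, 0.73 and 0.70. They were the 3 members without overlap, against 9.17% of all genes. Sesn2 stood at 8.43 to 9.04 in Cre columns, 7.90 to 8.02 in ERT2 columns and 7.79 to 7.94 with LY. The cell cycle inhibitor gene Cdkn1a differed by 0.04 and did not pass (limma adjusted p = 0.559), and Trp53inp1, at -0.85, was lower only against treated ERT2 cells.

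Of 25 interferon-stimulated genes, 10 were expressed enough to be tested, of which 2 were higher and 4 lower (against 19.4% and 18.8% of all genes). The cytosolic RNA sensor gene Ddx58 and the GTPase genes Gbp2 and Gbp3 were lower without overlap (-0.75, -0.75 and -0.51). Over all genes 4.24% were lower and 4.94% higher without overlap. The tetherin gene Bst2 was higher without overlap, at 6.62 to 7.23 in Cre columns against 6.20 to 6.43 in ERT2 columns and 5.26 to 5.63 with LY (1.14, SE 0.127, limma adjusted p = 2.93e-05). Zbp1, a nucleic acid sensor, was at 4.60 to 5.04 in ERT2, 7.52 to 7.77 with LY and 4.40 to 4.83 in Cre columns.

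**Figure D5:**
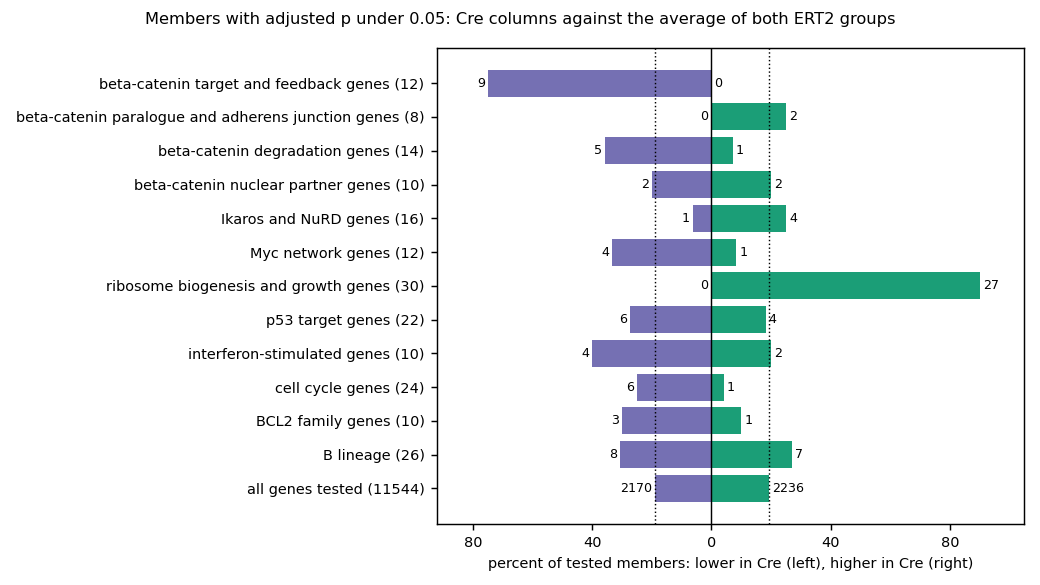
Percent of the tested members of each gene list (number tested in parentheses) that were lower (left) or higher (right) in Cre columns at an adjusted p under 0.05 in the vector difference, with the counts at the ends of the bars and the shares over all genes tested as dotted lines. Target and feedback genes stand out on the left with 9 of 12, and ribosome biogenesis and growth genes on the right with 27 of 30.

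Markers of other cells were few. Of 13 T-lineage markers 5 were tested, and Cd3e, Cd3g and Bcl11b were at -2.28 in every column. The summed T-lineage level, on the log2 scale, was 11.47 to 11.58 in ERT2, 12.60 to 12.81 with LY, 11.77 to 12 in crely and 12.35 to 12.51 in LY4CRE columns, and most of it was Lck. Of 15 myeloid markers 2 were tested, Lyz2 and Ly6g, with a summed level of 6.21 to 6.38 in ERT2, 7.45 to 7.51 with LY, 7.02 to 7.15 in crely and 6.32 to 6.46 in LY4CRE columns, while Mpo, Elane, S100a8 and S100a9 were listed at 0 throughout. Of 10 erythroid and megakaryocyte markers 1 was tested, Hbb-bt, at 5.24 in LY4CRE columns against 3.26 to 3.74 in the other sets on average. None of the NK or stromal markers passed the filter. B-lineage markers summed to 17.20 to 17.43 in all columns. The part of the other markers in the results above was not tested, and in bulk RNA fewer cells of a type cannot be told apart from less RNA per cell.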

How the data were processed

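RNA from all 12 libraries was sequenced by the authors as paired-end reads of a stranded mRNA kit. Per the labels and the study's methods, the authors checked reads with FastQC 0.11.9, SAMtools 1.7 and Picard 2.23.8, quantified transcripts with Salmon and normalized with DESeq2 1.30.1 (mouse build GRCm38). The deposited values are regularized log2 values (rlog) per gene, with no counts, so that depth is unknown. Of 41444 genes, 21786 were listed at 0 in every column and 11544 had a mean of at least 3 and were tested. Each column was placed in its group by its name, 0 columns were left unused, and the Cre columns formed 1 group. Linear models of the 3 groups came from limma 3.58.1 (R 4.3.3) with a trended moderated variance, and p-values were adjusted after Benjamini-Hochberg over all genes tested. The study's own count model could not be used on log2 values. The scripts were tested on simulated data. P-values measure the spread between libraries, part of which may be technical. Within the Cre group that spread also holds any difference between treated and untreated columns.

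Named genes were Ctnnb1, the 10 highest and 10 lowest by the vector difference among genes that passed without overlap, the 5 highest and 5 lowest against ERT2 without LY, and up to 4 called members of each list by size. Other list members were added beside the counts after their values were seen. Glo1 was added because it overlaps Dnah8. Members and lists were chosen with earlier results of these data known. Symbols matched for 41157 genes. Some items are not reported here. Skp1 and Tle5 did not match, the latter being listed as Aes. The smallest exact permutation p for 6 against 6 columns is 0.00216. Alternatives were other fits, filters, scalings and thresholds and leaving out each column, and, chosen after seeing the data, averaging both columns that share a library number.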

Additional observations from a re-analysis of the deposited data

Results flagged for a closer look

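In Tusc3, a subunit gene of the oligosaccharyltransferase complex, 1 crely column (4.14) lay apart from the other 5 Cre columns (6.69 to 7.64). The gap to its nearest neighbour was 0.729 of the whole range, above Dixon's 95% limit for 6 samples. The ERT2 columns with LY were uneven as well, at 6.08, 4.10 and 7.42, whereas those without LY stood at 4.03 to 4.12. Of 71 named genes checked in this way over the 6 Cre columns, this was the 1 that passed the limit, and chance alone would single out about 1 in 20 groups.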

How the results depend on the processing

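Of 2593 values of 130 named genes and list members under the alternatives, 2411 stayed on the same side of the threshold with the same direction, 181 lost their call (60 genes) and 1 reversed. Only genes called in the main fit were followed, so calls could be lost here but not gained. The reversed value was that of Cd24a, -0.07 after quantile normalization. The fit of 2 groups alone, in which the effect of LY adds to the replicate error, accounted for calls lost in 59 genes. It called 1813 genes in the vector difference (986 higher, 827 lower) and left Ctnnb1 at 0.14 without a call. With a size of at least 1, calls numbered 145 in the vector difference, 149 against ERT2 without LY and 598 against ERT2 with LY, and at a threshold of 0.01 they numbered 2602 in the vector difference and 1007 against ERT2 without LY. With the Cre columns as 2 sets by spelling, 5895 genes were called in the vector difference and 4027 genes differed from ERT2 without LY. Leaving out each column gave 3616 to 4478 genes in the vector difference, 1107 to 1463 without overlap and 1140 to 2378 against ERT2 without LY, the lowest counts being 1140 and 1168 without the first and the second ERT2 column. The mean position of the Cre columns between the ERT2 groups ranged from 0.21 to 0.27. With both columns that share a library number averaged, 3701 genes were called in the vector difference. No paired analysis was possible because columns cannot be tied to the replicate numbers in the labels. The table gives no counts, so precision by depth could not be given.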
